A study of Macaca mulatta with 24 samples.

Results

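The genes described here encode the enzymes that attach ubiquitin to proteins and those that take it off again, as measured in cerebral cortex of rhesus monkeys (Macaca mulatta) on 3 diets. The family was picked with earlier results of these data known, and the study names the ubiquitin cycle among its top gene ontology terms. Within the family, members were chosen by gene symbol alone, from the probe annotation of the array. Their symbols start with UBE2, UBA plus a digit, USP plus a digit, OTUD, OTUB or UCHL. Of 109 such symbols on the array, 61 were kept because 4 or more of the 24 arrays detected at least 1 of their probes (detection p under 0.01), out of 9884 genes that passed the same filter, and 48 stayed below it. Cortex RNA of 24 adult males, 7 to 13 years old (temporal neocortex by the extraction protocol and methods, although a legend of the study names frontal cortex), was hybridized to Illumina HumanHT-12 V4.0 beadchips, which carry probes designed for human transcripts, with 1 array per monkey.

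All 3 groups ate their diet for 2 years and received treats 2 times per day. The HFS+R group (10 monkeys) ate a high-fat, high-sugar diet in which fat gave 42% of the Kcal and sucrose made up 27% of the weight, and its treats held resveratrol (RSV), 40 mg in year 1 and 240 mg in year 2. The HFS group (10 monkeys) ate the same diet with placebo treats. The SD group (4 monkeys) ate a standard diet in which fat gave 13% of the Kcal and sucrose under 5% of the weight, also with placebo treats. HFS+R against HFS asks what the supplement changed on the same diet, HFS against SD asks what the diet changed, and HFS+R against SD gives both together.

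Ubiquitin is a small protein that marks other proteins for destruction by the proteasome, for sorting or for a change of activity. An activating enzyme (E1) charges ubiquitin with ATP and hands it to a conjugating enzyme (E2), which works with a ligase (E3) to join it to a target, and deubiquitinases, among them the USP, UCH and OTU families, cut it off and recycle it. Neurons rely on this cycle at synapses and in the clearance of damaged proteins, and inclusions that contain ubiquitin are a feature of many neurodegenerative diseases. Sister pathways use the same logic for the ubiquitin-like proteins NEDD8 and ISG15.

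The 61 members comprised 1 E1 of ubiquitin (UBA1), 2 E1 subunits or enzymes of ubiquitin-like proteins (UBA3 and UBA7), 18 E2 enzymes or E2 variants of ubiquitin, 2 E2 enzymes of ubiquitin-like proteins (UBE2F and UBE2L6), 29 USP, 3 UCH and 4 OTU deubiquitinases. The remaining 2 fit the symbol rule without being such an enzyme: UBE2D3-AS1, listed as an antisense RNA, and USP39, a splicing factor. Thus 19 members add ubiquitin and 36 remove it. Levels are log2 signals after Z normalization, in which every array is set to the same mean and the same SD. A difference of 1 is a change of 2-fold, and levels of different probes were not compared with each other. A gene is read from its brightest kept probe; 45 members had 1 kept probe and 16 had several.

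Between 11413 and 14890 probes per array were detected, and 53 of the 61 members were detected on every array. Neuron markers (9 of 10 measured, among them SNAP25 and CAMK2A) averaged 11.41 ± 0.14 in HFS+R, 11.44 ± 0.08 in HFS and 11.36 ± 0.18 in SD (mean log2 level, SD over monkeys), with 0 of 9 past the test in any comparison. A pair of array measures differed most between HFS+R and HFS, but neither passed after adjustment. The SD of log2 signal within an array was 1.48 ± 0.05 in HFS+R, 1.42 ± 0.05 in HFS and 1.499 ± 0.08 in SD (unadjusted permutation p = 0.0174 for HFS+R vs HFS, 0.375 after adjustment over 30 such tests). The mean log2 level of oligodendrocyte markers (10 of 11 measured; means run over those 10) was 9.45 ± 0.19 in HFS+R, 9.22 ± 0.26 in HFS and 9.27 ± 0.08 in SD (unadjusted permutation p = 0.0339 for HFS+R vs HFS, adjusted 0.375), and 3 of the 10 passed the test as higher in HFS+R than in HFS. Astrocyte markers had 1 of 7 higher and 1 lower in that comparison and 1 lower in HFS+R vs SD, and of the OPC, microglia, endothelial, mural and erythrocyte markers 0 passed in any comparison by limma; these 6 lists gave adjusted permutation p values of 0.375 to 0.949. In a bulk sample, fewer cells of a type and less RNA per cell cannot be told apart.

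In HFS+R compared with HFS, 11 of the 61 members were higher and 8 were lower (limma over all 9884 genes, Benjamini-Hochberg adjusted p under 0.05). Over all genes the background was 9.94% higher and 6.07% lower, against 18.0% and 13.1% of the members. With arrays scaled by their medians in place of the Z normalization, the split was 11 higher and 1 lower. Over all 9884 genes that scaling gave 1410 higher and 73 lower, against 982 and 600 in the main scale. It moved the median log2 difference over all genes to 0.11, against 0.02 in the main scale. Of the 61 members 43 lay above 0 (70.5%, against 55.9% of all genes), with a median log2 fold change of 0.08. That median was 0.04 under quantile normalization, 0.03 with the array SD as a covariate and 0.18 under median scaling. The enzymes that add and those that remove ubiquitin each held members of both directions: 4 of 19 adding enzymes were higher and 3 lower (median log2 fold change 0.12), and 6 of 36 removing enzymes were higher and 5 lower (median 0.08). No test was run between those 2 sets.

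**Figure D1:**
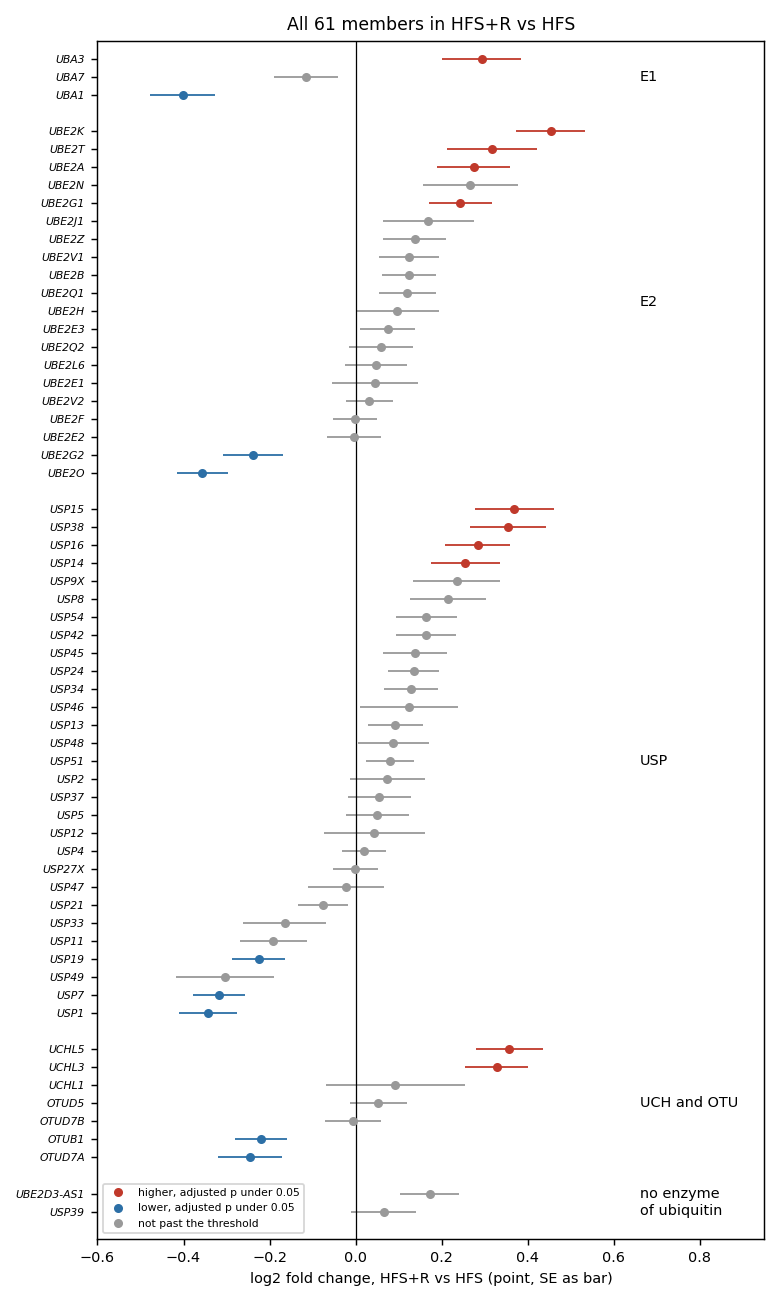
Log2 fold change of each of the 61 members in HFS+R vs HFS (x axis; point with its SE as a bar), grouped by enzyme class down the page; red points were higher and blue points lower at an adjusted p under 0.05. Points of both colours occur in the E1, E2, USP and the joint UCH and OTU groups, and 42 members are grey.

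The activating step held the largest decline among the members in HFS+R vs HFS. UBA1, the main E1 of ubiquitin, ranged from 11.05 to 11.55 in HFS+R (median 11.40) and from 11.51 to 11.98 in HFS (median 11.78), and its SD arrays read 11.42, 11.50, 11.74 and 11.98. The groups overlapped, but 7 of 10 HFS+R arrays lay under every HFS array. UBA1 thus fell by 0.40 on the log2 scale (SE 0.08, n = 10 each, limma adjusted p = 0.00209), and its other probe fell by 0.35 (adjusted p = 0.00257 among all probes). With median scaling its log2 fold change was -0.16 (limma adjusted p = 0.152), no longer past the threshold.

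The E1 subunit for NEDD8, UBA3, moved the other way. It ran from 8.83 to 9.51 in HFS+R (median 9.06) and from 8.59 to 9.17 in HFS (median 8.78), with 9.21, 9.14, 8.63 and 8.99 on the SD arrays. Only 3 HFS+R arrays exceeded every HFS array. The rise was 0.29 (log2, SE 0.09, limma adjusted p = 0.0318), but in 8 of the 24 fits with 1 array left out (HFS+R replicate 3, 8 or 9, or HFS replicate 1, 4, 6, 7 or 9) its adjusted p was 0.0504 to 0.065. UBA7, the E1 of ISG15, did not pass the test at a log2 fold change of -0.12 (SE 0.07, limma adjusted p = 0.298).

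Among the 18 E2 members, 4 were higher and 2 lower in HFS+R than in HFS, and 11 of the other 12 lay above 0. That was 22.2% higher and 11.1% lower, beside 9.94% and 6.07% of all genes. Above 0 lay 83.3% of the 18, beside 55.9% of all genes. The one member of all 61 whose HFS+R and HFS arrays did not overlap was UBE2K, an E2 that builds degradation-type ubiquitin chains and binds huntingtin; such separation occurred in 0.152% of all genes. UBE2K ranged from 9.45 to 9.82 in HFS+R (median 9.60) and from 8.54 to 9.41 in HFS (median 9.21), and read 9.27, 9.41, 9.12 and 9.17 in SD. All 10 HFS+R arrays were above all 14 other arrays. The rise over HFS was 0.45 (log2, SE 0.08, 1.37-fold, limma adjusted p = 0.0014). It stayed past the threshold under all 39 alternative settings, with log2 fold changes of 0.35 to 0.60. Some of those settings kept every HFS+R and HFS array on the main scale.

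UBE2O, a large enzyme that combines E2 and E3 activity, went the opposite way. Its levels were 8.66 to 9.11 in HFS+R (median 8.80) and 8.94 to 9.29 in HFS (median 9.21), and the SD arrays gave 9.01, 9.19, 9.12 and 9.17. Of the HFS+R arrays 8 of 10 lay under every HFS array. The decline was -0.36 (log2 fold change, SE 0.06, limma adjusted p = 0.00105), and with median scaling it was -0.22 (adjusted p = 0.0665).

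Smaller differences were found for UBE2A, UBE2G1, UBE2T and UBE2G2. UBE2A, a homologue of yeast RAD6 that acts on chromatin and in DNA repair, ran from 8.52 to 9.17 in HFS+R (median 8.73) and from 8.06 to 8.84 in HFS (median 8.44), with SD arrays at 8.91, 8.77, 8.53 and 8.45. UBE2G1 ran from 9.13 to 9.56 in HFS+R (median 9.37) and from 8.92 to 9.42 in HFS (median 9.05), with SD arrays at 9.08, 9.23, 8.85 and 9.04. The groups overlapped for both genes, and single HFS+R arrays past every HFS array numbered 1 for UBE2A and 4 for UBE2G1. The rises were 0.27 for UBE2A (log2, SE 0.09, limma adjusted p = 0.0308) and 0.24 for UBE2G1 (SE 0.07, adjusted p = 0.0271). Both lost the threshold when HFS+R replicate 3 or HFS replicate 7 was left out, with adjusted p values of 0.0605 and 0.0588 for UBE2A and of 0.0537 and 0.0506 for UBE2G1. The same held for UBE2A without HFS replicate 3 (adjusted p = 0.0557) and for UBE2G1 without HFS replicate 4 (adjusted p = 0.0544).

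UBE2T, the E2 of the Fanconi anaemia pathway of DNA crosslink repair, was the least stable of the 19. It lay between 6.40 and 7.17 in HFS+R (median 7.00) and between 6.35 and 6.94 in HFS (median 6.50), with 7.29, 6.65, 7.04 and 6.92 in SD. Of the HFS+R arrays 7 of 10 were above every HFS array, while 2 lay under the HFS mean. Its log2 fold change of 0.32 (SE 0.10, limma adjusted p = 0.039) failed the threshold in 17 of 38 settings, 12 of which left out 1 array (adjusted p 0.0543 to 0.0761), and the lowest value was 0.25. UBE2G2, an E2 of the degradation of misfolded proteins at the endoplasmic reticulum, was close to the detection limit: its probe was detected on 2 of 10 HFS+R, 5 of 10 HFS and 3 of 4 SD arrays. Its log2 level was 5.71 to 6.33 in HFS+R (median 6.01) and 6.06 to 6.41 in HFS (median 6.32), with SD arrays at 6.38, 6.25, 6.34 and 6.25, a log2 fold change of -0.24 (SE 0.07, limma adjusted p = 0.0217). Median scaling and either covariate took that adjusted p to between 0.0521 and 0.0579.

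UBE2N, the E2 that builds lysine-63 chains in signalling and DNA repair, was at 7.89 to 8.52 in HFS+R (median 8.19) and 7.47 to 8.35 in HFS (median 7.90), with SD arrays at 8.85, 8.44, 8.06 and 7.83. This log2 difference of 0.27 (SE 0.11) did not pass the test (limma adjusted p = 0.0984), though it did without HFS replicate 10 (0.31, adjusted p = 0.0423). Its partners, the E2 variants UBE2V1 and UBE2V2, did not pass either, with log2 fold changes of 0.12 (adjusted p = 0.225) and 0.03 (adjusted p = 0.729). UBE2E1, chosen here after its values were seen, had probes that disagreed in size. Its brightest probe gave a log2 fold change of 0.04 and the other gave 0.61 (SE 0.20, limma adjusted p = 0.0393 among all probes). The mean level of that other probe was 6.20. A probe other than the brightest also passed for UBE2E3 (0.23, limma adjusted p = 0.0466) and USP42 (0.22, adjusted p = 0.0205), neither of them called. The mean level of that probe was 9.04 for UBE2E3 and 6.21 for USP42. The 2 E2 enzymes of ubiquitin-like proteins, UBE2F and UBE2L6, gave -0.00 and 0.05.

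**Figure D2:**
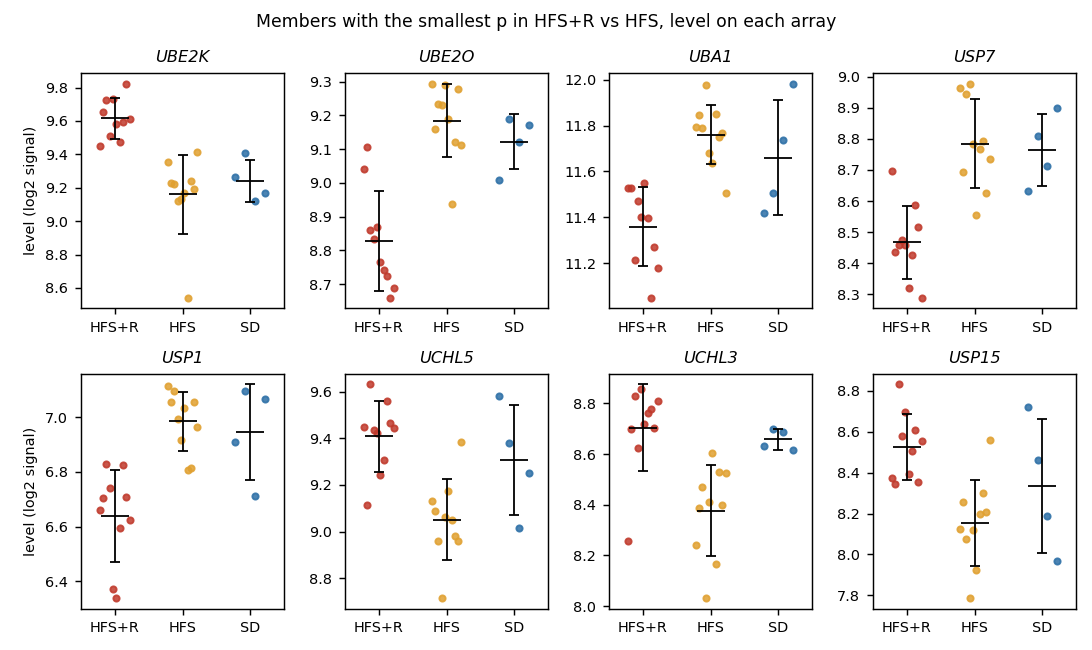
Log2 signal after Z normalization (y axis, 1 scale per panel) on each array of the HFS+R, HFS and SD groups for the 8 members with the smallest p in HFS+R vs HFS; black bars are the mean ± SD. UBE2K is the panel in which the HFS+R and HFS points do not overlap, and the low HFS point of UBE2K is replicate 7 at 8.54.

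Within the UCH family, 2 of 3 members rose, beside 9.94% of all genes. UCHL5, a deubiquitinase bound to the proteasome, had levels of 9.12 to 9.63 in HFS+R (median 9.44) and 8.72 to 9.39 in HFS (median 9.06), and 9.58, 9.38, 9.02 and 9.25 in SD. UCHL3, which processes ubiquitin and NEDD8 precursors, had levels of 8.26 to 8.86 in HFS+R (median 8.74) and 8.03 to 8.61 in HFS (median 8.41), and 8.63, 8.70, 8.69 and 8.62 in SD. For UCHL5, 7 of 10 HFS+R arrays exceeded every HFS array, and for UCHL3 9 of 10 did, the exception being replicate 1. The rises were 0.36 for UCHL5 (log2, SE 0.08, limma adjusted p = 0.00473) and 0.33 for UCHL3 (SE 0.07, adjusted p = 0.00557). UCHL1, one of the most abundant proteins of neurons, had the largest SE of any member, at 12.24 to 12.98 in HFS+R (median 12.73), 11.59 to 13.07 in HFS (median 12.61) and 11.75, 12.57, 13.06 and 12.85 in SD. Its log2 fold change of 0.09 (SE 0.16, limma adjusted p = 0.735) did not pass the test.

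Of the 29 USP members, 4 were higher and 3 lower in HFS+R than in HFS. That was 13.8% and 10.3%, beside 9.94% and 6.07% of all genes. The 22 others ran from -0.30 to 0.24 on the log2 scale. USP15, which trims ubiquitin from components of TGF-beta signalling, was at 8.35 to 8.83 in HFS+R (median 8.53) and 7.79 to 8.56 in HFS (median 8.16), with SD arrays at 8.72, 8.46, 8.19 and 7.97. USP38 was at 7.13 to 7.72 in HFS+R (median 7.27) and 6.61 to 7.31 in HFS (median 6.93), with SD arrays at 7.48, 7.23, 6.97 and 6.90. Every HFS+R array of both genes lay above the HFS mean, although the groups overlapped. USP15 rose by 0.37 (log2, SE 0.09, limma adjusted p = 0.00995) and USP38 by 0.35 (SE 0.09, adjusted p = 0.00997).

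USP16, a histone H2A deubiquitinase, ran from 9.27 to 9.66 in HFS+R (median 9.41) and from 8.75 to 9.44 in HFS (median 9.13), with 9.57, 9.30, 9.22 and 9.17 in SD. USP14, a deubiquitinase of the proteasome like UCHL5, ran from 8.41 to 8.86 in HFS+R (median 8.75) and from 8.08 to 8.77 in HFS (median 8.47), with 8.54, 8.40, 8.27 and 8.33 in SD. For each gene 4 HFS+R arrays exceeded every HFS array. USP16 rose by 0.28 (log2, SE 0.07, limma adjusted p = 0.0136); of its other probes 1 gave 0.31 and 1 gave -0.10. USP14 rose by 0.26 (SE 0.08, adjusted p = 0.0321), and 7 of the 24 fits with 1 array left out (HFS+R replicate 3, 8, 9 or 10, or HFS replicate 4, 6 or 7) gave adjusted p values between 0.0536 and 0.0627.

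The USP members that fell were USP7, USP1 and USP19. USP7, which deubiquitinates MDM2 and p53, ranged from 8.29 to 8.70 in HFS+R (median 8.46) and from 8.56 to 8.98 in HFS (median 8.78), with SD arrays at 8.63, 8.81, 8.71 and 8.90. USP1, which removes ubiquitin from FANCD2 and PCNA in DNA repair, ranged from 6.34 to 6.83 in HFS+R (median 6.68) and from 6.81 to 7.11 in HFS (median 7.01), with SD arrays at 6.91, 7.09, 6.71 and 7.07. In both genes 8 of 10 HFS+R arrays were under every HFS array. The log2 fold changes were -0.32 for USP7 (SE 0.06, limma adjusted p = 0.00229) and -0.34 for USP1 (SE 0.07, adjusted p = 0.0025). USP1 kept its call in all 39 settings, from -0.59 to -0.29, and USP7 lost it under median scaling alone (-0.20, adjusted p = 0.074). USP19, part of which is anchored to the endoplasmic reticulum, was at 6.42 to 6.91 in HFS+R (median 6.77) and 6.85 to 7.16 in HFS (median 6.93), with SD arrays at 7.01, 6.74, 6.92 and 6.96, a log2 fold change of -0.23 (SE 0.06, limma adjusted p = 0.0163). USP19 missed the threshold under median scaling (-0.17, adjusted p = 0.0797) and with the array SD as a covariate (-0.22, adjusted p = 0.0741).

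The OTU family had 2 of 4 members lower, beside 6.07% of all genes. OTUB1, which cleaves lysine-48 chains and also blocks UBE2N by binding it, was at 8.23 to 8.64 in HFS+R (median 8.41) and 8.32 to 8.85 in HFS (median 8.61), with SD arrays at 8.58, 8.61, 8.69 and 8.67. OTUD7A was at 7.43 to 8.00 in HFS+R (median 7.82) and 7.82 to 8.31 in HFS (median 8.04), with SD arrays at 7.93, 8.07, 8.12 and 8.11. The groups overlapped for both, with 2 HFS+R arrays of OTUB1 and 4 of OTUD7A under every HFS array. OTUB1 fell by 0.22 (log2, SE 0.06, limma adjusted p = 0.0173) and OTUD7A by 0.25 (SE 0.07, adjusted p = 0.0279), but the other probe of OTUB1 gave -0.01 and that of OTUD7A gave -0.06. Under median scaling OTUB1 gave -0.10 (adjusted p = 0.312) and OTUD7A -0.16 (adjusted p = 0.224), and with the array SD as a covariate their adjusted p values were 0.114 for OTUB1 and 0.0767 for OTUD7A. OTUD7A missed the threshold without HFS+R replicate 10 (adjusted p = 0.0517) and without HFS replicate 2, 3 or 4 (adjusted p 0.0501 to 0.0568).

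The array SD and the oligodendrocyte markers, both at an adjusted permutation p of 0.375 in HFS+R vs HFS, were set beside these calls. HFS+R replicate 3 has the highest SD of log2 signal of all arrays, at 1.58. It was the highest HFS+R array in 8 of the 11 members that rose, and without it 6 members were higher. The same was not counted over all genes, so these counts have no background beside them. With the array SD as a covariate, 1 member was higher (UBE2K) and 4 were lower (UBA1, UBE2O, USP1 and USP7), and with the oligodendrocyte marker level as a covariate 6 were higher and 7 lower. Over all 9884 genes, 161 were higher and 241 lower with the array SD covariate, and 470 and 391 with the oligodendrocyte covariate. Without a covariate 982 were higher and 600 lower. Of the members, the same 5, UBA1, UBE2K, UBE2O, USP1 and USP7, kept their call under both covariates. No log2 fold change of the 19 changed sign under either covariate or under median scaling. The part of these measures in the differences was not tested beyond those fits.

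**Figure D3:**
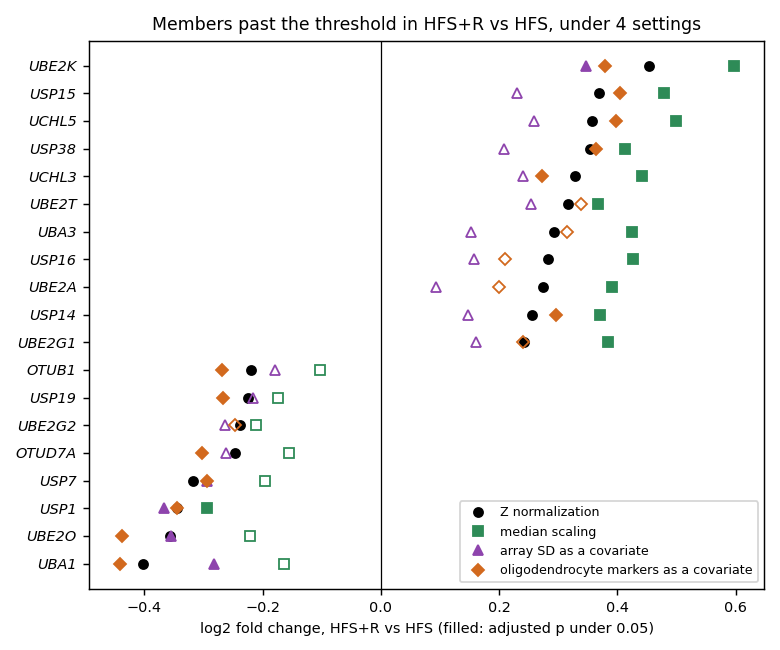
Log2 fold change in HFS+R vs HFS (x axis) of the 19 members past the threshold, under the Z normalization, median scaling, and the Z normalization with either array SD or oligodendrocyte markers as a covariate; filled symbols have an adjusted p under 0.05. UBE2K and USP1 are filled under all 4, and no symbol crosses 0 to the other side.

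In HFS compared with SD, 0 of the 61 members passed the test in either direction by limma, and the background over all 9884 genes was 0%. At an unadjusted p under 0.05 there were 9 members, against 1250 of all genes. The SE of a member's log2 fold change had a median of 0.10 here, with 4 SD arrays, against 0.07 in HFS+R vs HFS. Members that remove ubiquitin lay below 0 in 26 of 36 cases (median log2 fold change -0.09), and members that add it in 12 of 19 (median -0.03), beside 58.2% below 0 and a median of -0.03 over all genes. The median over all members was -0.05, and it was -0.01 under quantile normalization, -0.18 under median scaling and 0.01 with the array SD as a covariate. Over all genes the median was -0.0007 under quantile normalization, -0.16 under median scaling and 0.008 with the array SD as a covariate.

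The 4 members with the smallest p in HFS vs SD are given as values, none of them past the test. OTUD5, an OTU deubiquitinase that restrains interferon signalling, was at 6.33 to 6.85 in HFS (median 6.58) and read 6.93, 6.93, 6.76 and 6.90 in SD, a log2 fold change of -0.30 (SE 0.09, limma adjusted p = 0.225). USP48 was at 7.99 to 8.65 in HFS (median 8.46) and 8.91, 8.81, 8.60 and 8.67 in SD, a log2 fold change of -0.33 (SE 0.11, adjusted p = 0.251). HFS arrays lay under every SD array in 9 of 10 cases for OTUD5 and in 7 of 10 for USP48. UCHL3 was the one member whose HFS and SD arrays did not overlap, which held for 0.536% of all genes; its log2 fold change was -0.28 (SE 0.10, limma adjusted p = 0.262). UBE2T gave -0.40 (SE 0.14, adjusted p = 0.262), with 6 of 10 HFS arrays under every SD array.

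In HFS+R compared with SD, 2 members were higher and 5 were lower by limma, against backgrounds of 2.21% and 4.1% of all genes (3.28% and 8.2% of members). The deubiquitinases, which make up 36 of the 61 members, held 4 of the 5 lower members: USP49, USP33, USP7 and USP1. That was 11.1% of the 36, beside 5.26% of the 19 members that add ubiquitin. No test was run between those sets. USP49, a histone H2B deubiquitinase, ran from 9.30 to 10.07 in HFS+R (median 9.76) and from 9.46 to 10.68 in HFS (median 10.14), and read 10.54, 10.33, 10.44 and 10.62 in SD. No HFS+R array reached the SD range, and 9 of 10 HFS arrays were also under it. USP49 fell by 0.74 on the log2 scale in HFS+R vs SD (0.60-fold, SE 0.15, limma adjusted p = 0.00341), the largest difference of any member in the 3 comparisons. Its log2 fold changes were -0.30 in HFS+R vs HFS (adjusted p = 0.0666, and 0.0182 to 0.0422 in the 5 of 39 settings that took it past the threshold) and -0.43 in HFS vs SD (adjusted p = 0.262).

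USP33, which deubiquitinates the axon guidance receptor ROBO1, had 7.77 to 8.45 in HFS+R (median 8.09) and 8.78, 8.74, 8.34 and 8.39 in SD. Of the HFS+R arrays 8 of 10 were under every SD array. The log2 fold change was -0.45 (SE 0.13, limma adjusted p = 0.033), while the other kept probe of USP33 gave -0.36 and did not pass (adjusted p = 0.136 among all probes). The call was lost without SD replicate 1 (adjusted p = 0.116) or SD replicate 2 (adjusted p = 0.134). It was also lost without HFS+R replicate 7, 9 or 10 (adjusted p 0.0501 to 0.0549). The other 3 lower members had also fallen in HFS+R vs HFS, a comparison that shares the HFS+R arrays: UBE2O at -0.29 (SE 0.08, adjusted p = 0.0239), USP7 at -0.30 (SE 0.08, adjusted p = 0.0274) and USP1 at -0.31 (SE 0.09, adjusted p = 0.0389), all log2 by limma. Each of them missed the threshold without SD replicate 2 (adjusted p 0.0912 for UBE2O, 0.0912 for USP7 and 0.163 for USP1) and without SD replicate 4 (0.0749 for UBE2O, 0.115 for USP7 and 0.137 for USP1). UBE2O and USP7 also missed it without SD replicate 3 (adjusted p 0.0656 for UBE2O and 0.0552 for USP7), and USP1 without SD replicate 1 or HFS+R replicate 5, 6, 7 or 10 (adjusted p 0.0549 to 0.0628).

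UBE2K was higher in HFS+R than in SD by 0.37 (log2, SE 0.11, limma adjusted p = 0.0321), without overlap, and this was lost without SD replicate 1, 3 or 4 or HFS+R replicate 9 (adjusted p 0.0545 to 0.117). UBE2D3-AS1 was at 8.82 to 9.24 in HFS+R (median 8.93) and 8.75, 8.67, 8.40 and 8.59 in SD. This rise of 0.35 (log2, SE 0.09, limma adjusted p = 0.0192) also came without overlap of the groups, and was lost without SD replicate 3 (0.28, adjusted p = 0.108) or SD replicate 4 (0.35, adjusted p = 0.0514). Groups did not overlap in 4.01% of all genes in this comparison. Of the 7 members past the threshold, USP49 alone kept it with each array left out in turn.

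**Figure D4:**
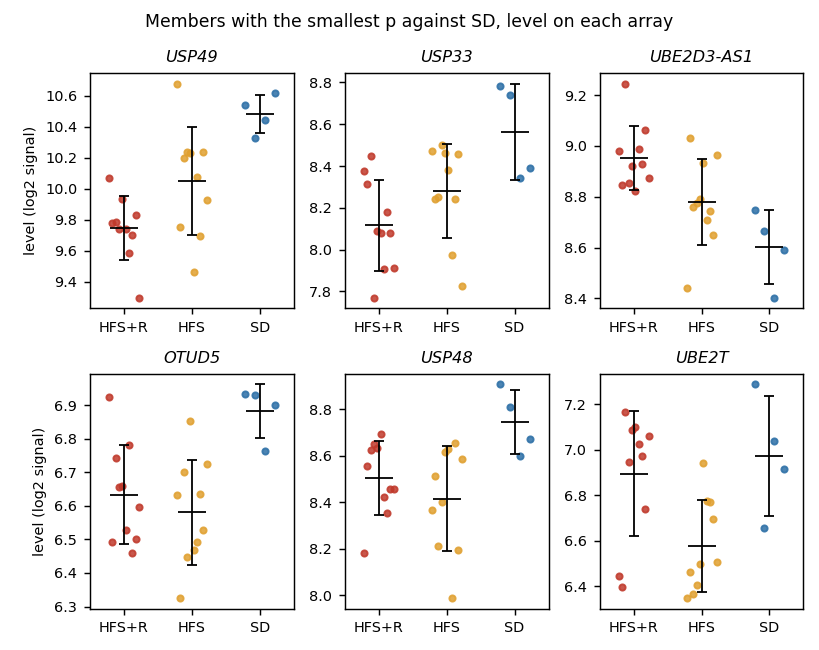
Log2 signal after Z normalization (y axis, 1 scale per panel) on each array of the HFS+R, HFS and SD groups for 6 members with small p against SD; black bars are the mean ± SD. All HFS+R points of USP49 lie under the SD points and all those of UBE2D3-AS1 above them, while OTUD5, USP48 and UBE2T did not pass the test in either comparison with SD.

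Other genes of the pathway were taken as 3 lists. Of 9 measured E1 and E2 genes with other names (of 12), 3 were higher and 1 lower in HFS+R vs HFS, beside the 9.94% and 6.07% of all genes. TSG101, an E2-like protein of endosomal sorting, rose by 0.30 (log2, SE 0.06, limma adjusted p = 0.00217), NAE1, the partner of UBA3 in the NEDD8 E1, by 0.16 (SE 0.05, adjusted p = 0.0418) and BIRC6, a giant hybrid E2 and E3, by 0.25 (SE 0.09, adjusted p = 0.0431). ATG10, the E2-like enzyme for ATG12 in autophagy, fell by 0.28 (SE 0.08, adjusted p = 0.0244). Of 21 measured genes listed as deubiquitinases or related proteins outside the symbol rule (of 33), 5 were higher and 0 lower in the same comparison. The list is loose: for ALG13, EIF3F, EIF3H, PAN2 and COPS6, removal of ubiquitin is not claimed here. Of the 21 genes, 9 had an unadjusted limma p under 0.05, as had 31.4% of all genes. The 4 with the smallest p were ALG13 at 0.45, BRCC3 at 0.33, COPS5 at 0.26 and STAMBP at 0.21 (log2 fold changes, limma adjusted p 0.00187 to 0.0327). BRCC3 cleaves lysine-63 chains, COPS5 removes NEDD8 from cullins and STAMBP acts at endosomes. Of 8 measured genes of ubiquitin itself and ubiquitin-like proteins (of 12), 0 passed the test in HFS+R vs HFS and 1 had an unadjusted p under 0.05; UBB, a polyubiquitin gene, gave -0.08 there (limma adjusted p = 0.672). SUMO2, a ubiquitin-like modifier, was the one of the 8 that passed in HFS+R vs SD, with a rise of 0.39 (log2, SE 0.08, limma adjusted p = 0.00562), and in HFS vs SD 0 passed, with 2 at an unadjusted p under 0.05.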

How the data were processed

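Groups and replicate numbers of the 24 arrays (HFS+R 10, HFS 10, SD 4) came from GEO's labels. The authors used GenomeStudio 2011.1 and deposited a signal intensity and a detection p-value per probe, and a Z score (log2 signal minus the array mean, divided by the array SD). Z scores recomputed from the intensities differed from the deposited score by at most 5e-10; they were multiplied by the mean array SD and shifted by the mean array mean, so that differences read as log2. Of 47323 probes, 12471 had 1 listed symbol and passed the detection filter, and the brightest stood for each of 9884 genes. Rhesus RNA was read with human probes, so a mismatch could dim a probe on all arrays. The number of arrays limits the precision.

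The 3 groups were fitted together in limma 3.58.1 (R 4.3.3; lmFit and eBayes, 2-sided, Benjamini-Hochberg over all genes, threshold 0.05), since the methods name no test. The fit was tested on simulated data. Array measures were compared by permutation (100000 resamples, or all splits with SD). Members and lists were chosen with earlier results of these data known. Named are all members past the threshold, the 4 with the smallest p where fewer than 4 passed, every measured E1, UBE2N with its partners, and the UCHL and OTUB members; of the other lists, up to 4 genes past the threshold in HFS+R vs HFS.

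Alternatives were quantile, neqc (offset 16) and median scaling, the deposited Z scores, other probe filters, several probes per gene, only the groups compared, array weights, another prior, covariates, the replicate block, the methods' thresholds (Z ratio over 1.5, unadjusted p under 0.05, false discovery rate read as under 0.3) and each array left out. The deposited Z scores repeat the main scale, and a fit without an array of the third diet keeps every array of the comparison. Both kinds are counted among the settings. Replicate numbers only name separate monkeys.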

Additional observations from a re-analysis of the deposited data

Results flagged for a closer look

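In 7 of 87 groups (29 members over 3 diets) 1 array stood apart from the others of its diet by Dixon's gap test, which chance does in about 1 of 20 groups. All values are log2 levels, each with the next array of the same diet. HFS replicate 7 was the lowest for UBE2K (8.54, next 9.12) and for UBE2O (8.94, next 9.11). HFS+R replicate 3 was the highest for UBE2A (9.17, next 8.83) and for USP38 (7.72, next 7.43). HFS+R replicate 1 was the lowest for UCHL3 (8.26, next 8.63), HFS+R replicate 5 the lowest for UBE2V1 (6.51, next 6.78) and HFS replicate 6 the lowest for UCHL1 (11.59, next 12.37). UBE2K, UBE2O, UCHL3 and USP38 kept their call in HFS+R vs HFS with any array left out, and UBE2A did not.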

How the results depend on the processing

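Of the 29 named members, none changed sign while called, with or without the alternative, under the alternatives that give a value per gene. Over 1128 gene and setting combinations a comparison, 1047 kept their side of the threshold for HFS+R vs HFS, 1128 for HFS vs SD and 1058 for HFS+R vs SD; signs turned without a call in 4 for HFS+R vs HFS, 59 for HFS vs SD and 15 for HFS+R vs SD. Of the 19 members called in HFS+R vs HFS, 10 were called under all 4 scalings, 13 with each array left out, and 2 (UBE2K and USP1) in every setting. The 11 higher members became 1 with the array SD as a covariate and 6 with the oligodendrocyte covariate. Over all genes the 982 higher became 161 and 470 under these covariates. With 1 array left out the higher members numbered 6 to 12 (6 without HFS+R replicate 3, 7 without HFS replicate 4 or 7). Counts over all genes were not made with 1 array left out, so such member counts have no background in any comparison. The 8 lower members became 1 under median scaling, 4 with the array SD as a covariate and 7 to 10 with 1 array left out. Over all genes the 600 lower became 73 under median scaling and 241 with the array SD as a covariate. In HFS vs SD the thresholds of the methods gave 6 lower members in place of 0. The share of all genes past those thresholds was not computed in any comparison, so counts by them have no background beside them. At an unadjusted limma p under 0.05 alone, 12.6% of all genes and 14.8% of members passed in HFS vs SD. In HFS+R vs SD the same limit held 20.4% of all genes and 31.1% of members. In HFS+R vs SD the 2 higher members became 4 under quantile normalization, neqc, array weights or the array SD covariate, 0 under median scaling, 1 with the oligodendrocyte covariate, 5 by the thresholds of the methods and 0 to 4 with 1 array left out; they became 4 without HFS+R replicate 2, 1 without HFS+R replicate 9 or SD replicate 1 or 4, and 0 without SD replicate 3. The 5 lower members became 3 under median scaling, 3 without a probe filter, 12 by the thresholds of the methods and 1 to 6 with 1 array left out; they became 3 without HFS+R replicate 7 or 10 or SD replicate 3, 2 without SD replicate 4 and 1 without SD replicate 2. Over all genes the 218 higher in HFS+R vs SD became 326 under quantile normalization, 299 under neqc and 460 with the array SD covariate. They became 30 under median scaling and 226 with the oligodendrocyte covariate, and the 405 lower became 331 under median scaling. The cause of these shifts was not tested. With the replicate number as a block, HFS+R vs HFS gave 11 higher and 7 lower members (17 of the 19 calls shared). Over all genes the block gave 924 higher and 620 lower there. HFS vs SD gave 0 and 0 members, and HFS+R vs SD 0 higher and 0 lower over the 4 numbers both groups have. Such a fit has fewer samples, and 0 of all genes passed in either comparison with SD. Same-numbered arrays correlated at -0.12 to 0.25 in HFS+R vs HFS, and 3 of 10 did so best with their own number.

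Of the 61 members 8 were detected on fewer than 24 arrays (UBE2G2 on 10, UBE2T on 23), where their signal was not above background on every array. With 4 SD monkeys the median SE of a member was 0.10 in both comparisons with that diet. Of 16 members with several kept probes, 11 had all of them on the same side of 0 in HFS+R vs HFS; USP16 was the one called member that did not.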
